A study of Mus musculus with 12 samples.

Results

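Genes of the immediate early and MAP kinase feedback class, 10 in all, were examined in mouse liver: Fos, Fosb, Jun, Junb, Egr1, Ier2, Ier3, Myc, Dusp1 and Dusp6. They were taken by gene symbol from the platform annotation, which assigns them 11 probe sets, 2 for Jun and 1 for each of the other 9 genes, out of 12393 genes with a probe set of their own on the Affymetrix array. Picking probe sets by symbol used no measured value, but the members were chosen with earlier results of these data known. The livers came from 12 adult male C57BL6/J mice aged 8 weeks, 3 in each of 4 groups. Wild-type mice and txnrd1 liver-null mice each received saline (PBS) or acetaminophen (APAP, 100 mg/kg into the peritoneum). All livers were taken 8 hours after the injection. In the liver-null mice a conditional allele of Txnrd1, the gene of cytosolic thioredoxin reductase, was disrupted by albCre, a Cre recombinase that albumin regulatory sequences drive in hepatocytes, so the other cells of the liver keep the gene. The labels do not say whether the wild-type mice carry the conditional allele or the Cre transgene. The design asks how Txnrd1 loss and APAP, alone and together, alter liver transcripts.

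Immediate early genes are transcribed within minutes of a stimulus without new protein synthesis, and most of their mRNAs decay rapidly. Growth factor and stress signals reach them through the MAP kinases ERK, JNK and p38, which activate transcription factors already bound at their promoters. The FOS and JUN proteins pair to form the transcription factor AP-1, EGR1 is a zinc finger factor of the same first wave, MYC drives growth and metabolism, and the dual-specificity phosphatases DUSP1 and DUSP6 switch the MAP kinases off again. In the liver these genes respond to partial hepatectomy, to injury and to the handling of tissue, and JNK takes part in the injury that high doses of APAP cause.

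The targeted gene did not check the labels. The expressed Txnrd1 probe set was higher in the livers labelled liver-null (10.26 to 10.58) than in wild-type livers (9.43 to 9.81), and its position relative to the deleted part was not analysed here. The groups are therefore named as labelled. By their upper quartile 8 arrays (5.73 to 5.85) stood apart from the other 4 (5.49 to 5.58), a split into a first and a second array set for which no label gives a name, and each group held 1 array of the second set (liver-null APAP 17, liver-null saline 16, wild-type APAP 14 and wild-type saline 10). The difference between the 3-prime and 5-prime control probe sets, a sign of RNA integrity, was 0.86 to 1.09 for beta-actin and -0.10 to 0.24 for Gapdh. All 8 hepatocyte markers were well above the low end of the array, with means over the arrays of 10.95 to 13.75.

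No member passed the test in any of the 7 comparisons as fitted, while Fos, Myc, Dusp1 and Jun each passed in at least 1 of them under another setting. Of the 10 genes, 8 were tested, and Fosb and Egr1 were not, because a test required a value above the 40th percentile of the array (2.42 to 2.48) on at least 3 arrays. Fosb reached it on 0 arrays and Egr1 on 1. Between the genotypes 0 of the 8 tested members were called in saline and 0 after APAP (limma, adjusted p under 0.05), where 0.638% and 0.768% of all 8469 tested genes were called. At an unadjusted p under 0.05 there were 0 members in saline and 3 after APAP, Fos, Myc and Dusp1, against 12.2% and 9.02% of all genes. The saline count of 0 became 3 with only the arrays compared or without liver-null APAP 17, and 2 with array weights or in the first array set alone. It became 1 with the array set as a covariate, or without wild-type saline 10 or wild-type APAP 12. The APAP count of 3 became 1 without wild-type APAP 14 or liver-null APAP 2. It became 2 with only the arrays compared, in the first array set alone, or without wild-type APAP 13 or liver-null APAP 17. Between APAP and saline 0 members were called in either genotype, where 0% of all genes were called. At an unadjusted p under 0.05 stood 3 members in wild-type livers, Fos, Jun and Dusp1, and 1 in those labelled liver-null, Dusp6, against 1.69% and 0.697% of all genes. The 3 became 1 without wild-type saline 9, wild-type saline 10 or wild-type APAP 13. The 1 became 0 without wild-type saline 8, any 1 of the 3 liver-null saline livers or liver-null APAP 3. It became 2 without liver-null APAP 17, with the array set as a covariate or in the first array set alone, and 3 with array weights. With the array set as a covariate 0 members passed in these 4 comparisons, against 2.87% of all genes between the genotypes in saline, 2.18% after APAP and 0% for APAP in either genotype. The 4 comparisons share groups, so their member counts are not independent of each other. The 12 livers are separate samples in the labels, and the array number limits the precision. In bulk liver fewer cells of a type and less RNA per cell cannot be told apart.

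**Figure D1:**
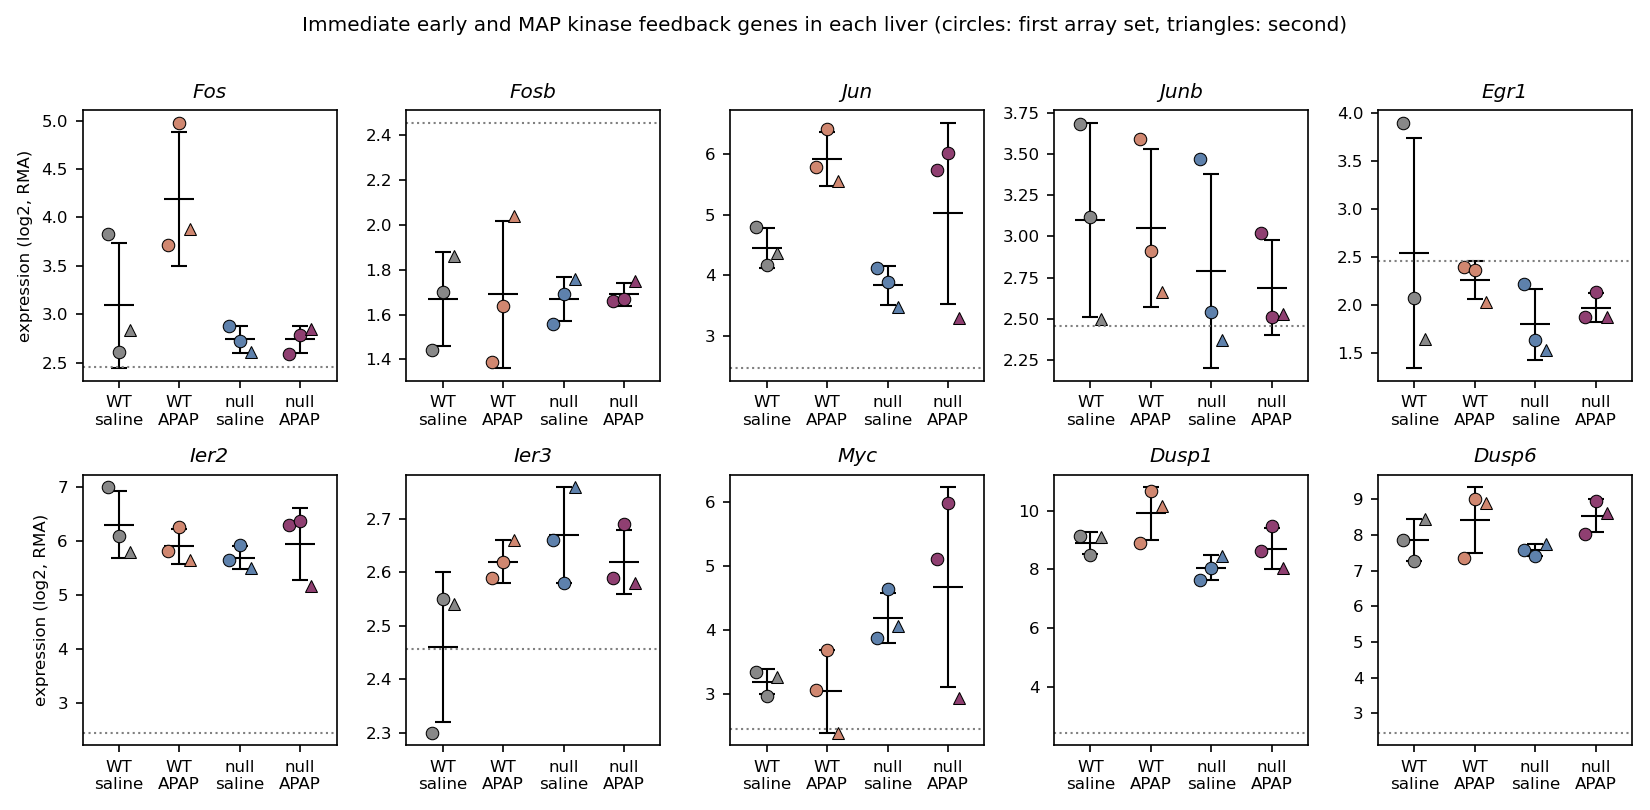
Log2 expression (vertical axes, which differ between panels) of the 10 genes in each liver by group, with the mean and SD of 3 livers as bars, circles for the first array set, triangles for the second and a dotted line at the mean 40th percentile of the arrays. Fos had its highest group mean in wild-type APAP livers (3.71 to 4.98), and Myc lay at 3.88 to 4.64 in the liver-null saline livers.

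The promoters of Fos, Jun and Dusp1 are shown because these are the 3 members whose wild-type values differed most between APAP and saline relative to their error. RefSeq promoter sequences (GRCm38.p6) of 7 members were used, and the 150 bases before the start were searched on both strands for 7 motifs. Egr1, Ier2 and Myc were not searched, so the motif results do not cover them. Capitals mark every match, 5′ to 3′ on the strand of the gene. Fos lies on chromosome 12 (+ strand) and the stretch at chr12:85473740-85473889, Jun on chromosome 4 (- strand) at chr4:95052223-95052372, and Dusp1 on chromosome 17 (- strand) at chr17:26508473-26508622.
Fos: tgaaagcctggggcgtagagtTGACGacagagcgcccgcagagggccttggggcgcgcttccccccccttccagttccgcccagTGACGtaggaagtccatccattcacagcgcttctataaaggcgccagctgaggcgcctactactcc
Jun: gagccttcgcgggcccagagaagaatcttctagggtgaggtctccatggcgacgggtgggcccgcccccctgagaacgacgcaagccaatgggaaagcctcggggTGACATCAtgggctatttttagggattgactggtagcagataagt
Dusp1: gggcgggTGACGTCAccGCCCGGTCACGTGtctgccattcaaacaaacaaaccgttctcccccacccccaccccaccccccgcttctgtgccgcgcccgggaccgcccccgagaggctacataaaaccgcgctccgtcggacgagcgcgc
The Fos stretch held TGACG, the 5-letter start of the cAMP response element, 2 times, beginning 129 and 66 bases before the start. Jun held TGACATCA, a variant of the AP-1 site, 45 bases before the start. Dusp1 held the whole element TGACGTCA 143 bases before the start, which contains TGACG on both strands. It also held the E-box CACGTG at 126 bases, overlapped by TGACNNNGC, the core of the antioxidant response element, on the other strand. Among 32851 promoter stretches of this length, TGACG was present in 13.3%, TGACATCA in 2.32%, TGACGTCA in 1.36%, CACGTG in 4.30% and TGACNNNGC in 6.80%. TGACG was also in the stretches of Fosb and Junb. The other 2 motifs, TGANTCA (4.24% of all stretches) and the CArG box that serum response factor binds (0.916%), matched none of the 7 members within this window, and Ier3 and Dusp6 held none of the 7 motifs.

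Fos, the AP-1 subunit that must pair with a JUN protein, read 3.83, 2.61 and 2.84 in wild-type saline livers 8, 9 and 10, and 3.71, 4.98 and 3.88 in wild-type APAP livers 12, 13 and 14. In livers labelled liver-null it read 2.88, 2.72 and 2.61 with saline (replicates 4, 5 and 16) and 2.59, 2.79 and 2.85 with APAP (replicates 2, 3 and 17). Every wild-type APAP liver thus lay above every liver-null APAP liver, and all 6 liver-null values lay between 2.59 and 2.88. That is just above the 40th percentile of the arrays (2.42 to 2.48), so differences from these values may be understated. After APAP the genotypes differed by -1.45 on the log2 scale (SE 0.34, 95% confidence interval -2.19 to -0.70, adjusted p = 0.0924, limma), a 2.72-fold lower level in livers labelled liver-null that missed the threshold. The difference was -1.65 within the first array set and -1.04 within the second. It passed without wild-type saline 8 (-1.45, adjusted p = 0.0468) and with array weights (-1.76, adjusted p = 0.0170), and was smallest without wild-type APAP 13, at -1.05. In saline the difference was -0.36 (interval -1.10 to 0.39).

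The APAP difference of Fos was 1.10 in wild-type livers (interval 0.35 to 1.84) and 0.01 in those labelled liver-null (interval -0.74 to 0.75). Near the low end of the array, the latter does not show that Fos lacked a response in livers labelled liver-null. Wild-type saline 8, at 3.83, lay above wild-type APAP 12, at 3.71, so the wild-type groups overlapped. The difference between those APAP differences, the interaction, was -1.09 (SE 0.48, interval -2.14 to -0.04, adjusted p = 0.999, limma) and was not called. At an unadjusted p under 0.05 Fos was the 1 member in the interaction, against 1.29% of all genes, and 0 members were called, as for 0% of all genes. That count of 1 held without wild-type saline 8, wild-type APAP 12 or wild-type APAP 14, became 2 without liver-null APAP 17, and became 0 without any 1 of the other 8 livers. Without wild-type APAP 13 the interaction was -0.70 and the wild-type APAP difference 0.70.

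Jun, the AP-1 subunit that JNK phosphorylates, read 4.80, 4.17 and 4.36 in wild-type saline livers and 5.79, 6.42 and 5.55 in wild-type APAP livers. The liver-null livers read 4.11, 3.89 and 3.48 with saline and 5.74, 6.02 and 3.29 with APAP. The wild-type groups were apart, as for 5.02% of all genes, while liver-null APAP 17 lay below all 3 liver-null saline livers. The APAP difference was 1.48 in wild-type livers (SE 0.56, interval 0.24 to 2.71, adjusted p = 1, limma) and 1.19 in those labelled liver-null (interval -0.04 to 2.43), and neither was called. The latter was 1.88 within the first array set and -0.19 within the second. Averaged over the genotypes it was 1.33 (SE 0.40, interval 0.46 to 2.21, adjusted p = 1, limma). Without liver-null APAP 17 this average was 1.77 and passed (adjusted p = 0.0166, limma), and Jun was then the 1 gene of 8469 called, 0.0118%.

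The other probe set of Jun gave smaller differences. It read 4.71, 4.0 and 4.34 in wild-type saline livers and 4.82, 5.37 and 4.63 in wild-type APAP livers. In livers labelled liver-null it read 4.07, 3.93 and 3.87 with saline and 4.65, 4.56 and 3.55 with APAP. Its wild-type groups overlapped, its APAP difference was 0.59 in wild-type livers and 0.29 in those labelled liver-null, and the correlation of both probe sets over the 12 arrays was r = 0.925. Between the genotypes the probe set used for Jun differed by -0.62 in saline (interval -1.85 to 0.62), with no overlap of the groups. After APAP it differed by -0.90 (interval -2.14 to 0.33), with overlap. The other probe set differed by -0.39 in saline and -0.69 after APAP, and its groups overlapped in both. Fitted over 22626 probe sets, the latter had an unadjusted p of 0.0354 and an adjusted p of 0.666 (limma). Averaged over both treatments it differed by -0.54 (unadjusted p = 0.022, adjusted p = 0.277, limma).

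Junb, a JUN family member of AP-1, was low on the array and separated no groups. It read 3.68, 3.12 and 2.5 in wild-type saline livers, 3.59, 2.91 and 2.66 in wild-type APAP livers, 3.47, 2.54 and 2.37 in liver-null saline livers and 3.02, 2.51 and 2.53 in liver-null APAP livers. In 3 of 4 groups the array of the second set was lowest. Its differences ran from -0.37 (liver-null minus wild-type after APAP, interval -1.14 to 0.41) to -0.05 (APAP minus saline in wild-type livers, interval -0.83 to 0.73). Fosb, a FOS family member, lay between 1.39 and 2.04 on all 12 arrays, under the 40th percentile on each, and no difference is given for it.

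Egr1, the zinc finger factor of the first wave, was above the 40th percentile in a single liver. Wild-type saline 8 read 3.90, and the other 11 livers lay between 1.53 and 2.40. The same liver had the highest Ier2 and the highest Junb of the 12. Egr1 was not tested. Its group means were 2.54 ± 1.2 (SD, n = 3) in wild-type saline, 2.26 ± 0.20 in wild-type APAP, 1.80 ± 0.37 in liver-null saline and 1.97 ± 0.15 in liver-null APAP livers.

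Ier2, a nuclear protein induced by growth factors, read 7.01, 6.11 and 5.81 in wild-type saline and 5.82, 6.27 and 5.65 in wild-type APAP livers. The liver-null livers read 5.66, 5.93 and 5.51 with saline and 6.30, 6.37 and 5.18 with APAP. All groups overlapped in each of the 4 comparisons. The array of the second set was the lowest of its group in 4 of 4 groups, and the role of the array set in these values was not tested apart from its use as a covariate. The largest difference was -0.61 (liver-null minus wild-type in saline, interval -1.37 to 0.15).

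Ier3, an early response gene that modulates ERK signalling and cell survival, varied least. All 12 livers lay between 2.30 and 2.76, close to the 40th percentile. In saline the liver-null values of 2.66, 2.58 and 2.76 lay above the wild-type values of 2.30, 2.55 and 2.54, a difference of 0.20 (SE 0.11, interval -0.03 to 0.44, adjusted p = 0.504, limma). After APAP the difference was 0.00 (interval -0.24 to 0.23). The wild-type APAP values of 2.59, 2.62 and 2.66 lay above the 3 wild-type saline values, a difference of 0.16 (interval -0.07 to 0.39). A probe set so near the low end of the array can hide a difference, and Ier3 is not shown to be equal between the groups.

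Myc, the transcription factor of growth genes, read 3.35, 2.97 and 3.27 in wild-type saline and 3.06, 3.70 and 2.40 in wild-type APAP livers. In livers labelled liver-null it read 3.88, 4.64 and 4.06 with saline and 5.11, 5.99 and 2.95 with APAP. In saline the genotypes did not overlap, and after APAP liver-null APAP 17 lay among the wild-type values while the other 2 lay above them. The difference was 0.99 in saline (SE 0.60, interval -0.33 to 2.31, adjusted p = 0.587, limma) and 1.63 after APAP (SE 0.60, interval 0.31 to 2.95, adjusted p = 0.367, limma). Without liver-null APAP 17 the APAP difference was 2.49 and passed (adjusted p = 0.0193), and without liver-null APAP 3 it was 0.98. Within the array sets the APAP difference was 2.17 in the first and 0.55 in the second.

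The MAP kinase phosphatases were measured well above the low end of the array. Dusp1, which inactivates p38, JNK and ERK in the nucleus, read 9.14, 8.49 and 9.11 in wild-type saline livers and 8.91, 10.65 and 10.15 in wild-type APAP livers. The liver-null livers read 7.63, 8.06 and 8.47 with saline and 8.62, 9.47 and 8.05 with APAP. In saline the lowest wild-type value (8.49) lay just above the highest liver-null value (8.47). The genotypes differed by -0.86 in saline (SE 0.44, interval -1.83 to 0.11, adjusted p = 0.491, limma) and by -1.19 after APAP (SE 0.44, interval -2.16 to -0.22, adjusted p = 0.375, limma), where the groups overlapped. The latter was -0.74 within the first array set and -2.10 within the second. The APAP difference was 0.99 in wild-type livers (interval 0.02 to 1.96) and 0.66 in those labelled liver-null (interval -0.32 to 1.63), and the groups overlapped in both genotypes. The wild-type value was 0.61 without wild-type APAP 13 and 1.49 without wild-type APAP 12, and the liver-null value was 1.2 within the first array set and -0.42 within the second.

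Dusp6, the cytoplasmic phosphatase specific for ERK and itself a transcript that ERK signalling induces, read 7.86, 7.28 and 8.45 in wild-type saline livers and 7.34, 9.0 and 8.88 in wild-type APAP livers. In livers labelled liver-null it read 7.58, 7.41 and 7.74 with saline and 8.03, 8.94 and 8.61 with APAP. Every liver-null APAP liver lay above every liver-null saline liver, as for 4.89% of all genes, with a difference of 0.95 (SE 0.42, interval 0.03 to 1.87, adjusted p = 1, limma). In wild-type livers the difference was 0.55 (interval -0.37 to 1.46) and wild-type APAP 12 lay near the low end of the saline values. The interaction was 0.40 (interval -0.90 to 1.70), so a difference between the genotypes in the APAP response of Dusp6 was not shown.

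**Figure D2:**
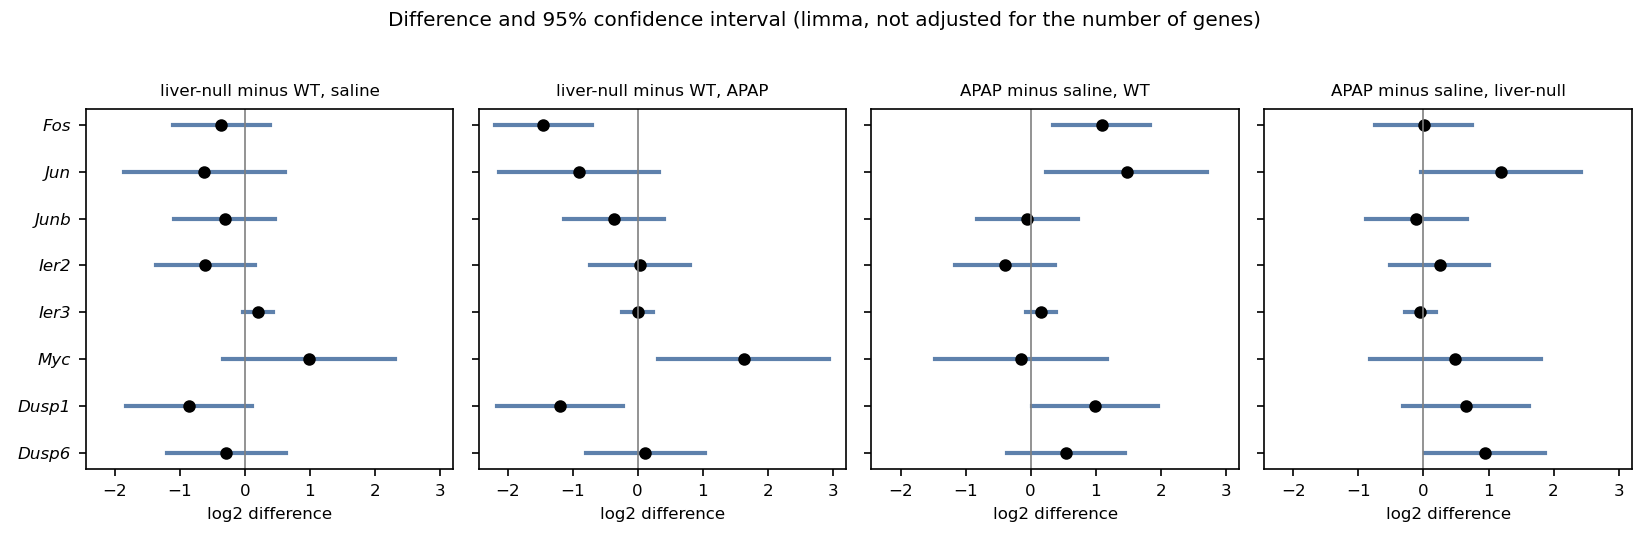
Log2 differences (horizontal axes) of the 8 tested genes in the 4 comparisons of 2 groups, as points with 95% confidence intervals from limma that are not adjusted for the number of genes. After APAP the intervals of Fos (-2.19 to -0.70), Dusp1 (-2.16 to -0.22) and Myc (0.31 to 2.95) lie to 1 side of 0 between the genotypes, and none of the 3 passed after adjustment.

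Groups that did not overlap were counted for each comparison. Of the 8 tested members, 4 separated the genotypes in saline, Ier3 and Myc upward and Jun and Dusp1 downward, where 15.2% of all genes did (6.48% upward and 8.70% downward). After APAP 1 member separated them, Fos, downward, where 13.9% of all genes did (6.91% downward and 6.97% upward). For APAP against saline 2 members separated the wild-type groups, Jun and Ier3, both upward (5.02% of all genes, 2.23% upward), and 1 the liver-null groups, Dusp6, upward (4.89%, 3.18% upward). By its other probe set Jun separated neither the genotypes in saline nor the wild-type groups. The median log2 difference of the 8 members was -0.33 between the genotypes in saline and -0.18 after APAP, beside -0.03 and 0.00 for all genes. For APAP it was 0.35 in the wild-type and 0.37 in the liver-null livers, beside -0.02 and 0.02 for all genes.

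With the genotype difference averaged over both treatments, which sets 6 livers against 6, Fos, Dusp1 and Myc had the lowest adjusted p-values of the members. The average difference was -0.90 for Fos (SE 0.24, interval -1.43 to -0.37, adjusted p = 0.0606), -1.02 for Dusp1 (SE 0.31, interval -1.71 to -0.34, adjusted p = 0.101) and 1.31 for Myc (SE 0.43, interval 0.38 to 2.24, adjusted p = 0.122), all from limma. Of 8 members 0 were called and 3 had an unadjusted p under 0.05, where 4.46% and 17% of all genes did, and 0 members separated all 12 livers by genotype, as 4.36% of all genes did. With the array set as a covariate 2 members passed, Fos lower (adjusted p = 0.0386) and Myc higher (adjusted p = 0.0408) in livers labelled liver-null, where 10.4% of all genes passed. Myc also passed in the 8 arrays of the first set alone (1.63, adjusted p = 0.0181) and without liver-null APAP 17 (1.74, adjusted p = 0.00459). Dusp1 passed without wild-type APAP 12 (-1.27, adjusted p = 0.0267), as did Fos (-1.02, adjusted p = 0.0490). The other members had average differences from -0.76 (Jun, interval -1.63 to 0.11) to 0.10 (Ier3, interval -0.07 to 0.26).

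With the APAP difference averaged over both genotypes, 0 of 8 members were called and 4 had an unadjusted p under 0.05, all upward, against 0% and 1.2% of all genes. The 4 became 1 without wild-type saline 9, wild-type APAP 13 or liver-null APAP 3, and 2 without liver-null saline 5. They became 3 without wild-type saline 10, wild-type APAP 14 or liver-null saline 4 or 16, and in the first array set alone. The 4 were Jun (above), Dusp1 with 0.82 (SE 0.31, interval 0.13 to 1.51), Dusp6 with 0.75 (SE 0.30, interval 0.10 to 1.40) and Fos with 0.55 (SE 0.24, interval 0.03 to 1.08), which was 0.36 without wild-type APAP 13. No member separated the 6 APAP livers from the 6 saline livers, as 0.0354% of all genes did. Junb, Ier2, Ier3 and Myc lay between -0.08 and 0.17, with intervals that reached from -0.76 to 1.11.

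The members varied more between livers of 1 group than most genes did. The within-group SD of the fit was 0.87 for Myc, 0.82 for Jun, 0.64 for Dusp1, 0.60 for Dusp6, 0.51 for Junb, 0.49 for Ier2 and 0.48 for Fos, and for these 7 of 8 tested members it exceeded that of at least 95.2% of the tested genes. For Ier3, at 0.09, it exceeded that of 4.70%. In liver-null APAP 17 Jun lay 1.72 and Myc 1.73 below their group means, and 6 of 8 members lay below. In wild-type APAP 12 Dusp1 lay 0.99 and Dusp6 1.07 below, and 6 of 8 members lay below. In liver-null APAP 3, 7 of 8 members lay above the group mean, led by Myc with 1.3 and Jun with 1.00, and in wild-type APAP 13 and wild-type saline 8 there were 6 of 8 above.

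Some members deviated together. As a description over 12 livers that share array sets and groups, the deviations from the group means correlated with r = 0.923 for Jun and Myc, 0.838 for Jun and Ier2, 0.775 for Ier2 and Myc, and 0.771 for Dusp1 and Dusp6. Without the 2 livers farthest from the median of the first gene named, these were 0.699, 0.756, 0.779 and 0.746. Without liver-null APAP 17 they were 0.666, 0.745, 0.521 and 0.894, and in the 8 livers of the first array set 0.547, 0.816, 0.624 and 0.956. In that set each group had only a pair of livers, whose deviations from their mean are equal and opposite. Correlations in that set, here and below, thus rest on a single independent value for each of the 4 groups. Fos and Jun correlated with 0.265 over the 12 livers, 0.876 without liver-null APAP 17 and 0.973 in the first set. For Fos and Ier2 these were 0.550, 0.832 and 0.886. Without the 2 livers farthest from the median of Fos, the correlations were 0.0314 (Fos and Jun) and 0.123 (Fos and Ier2). The most negative of the 28 pairs over the 12 livers was Junb and Dusp6 (-0.617, and -0.408 in the first set). It was Ier2 and Ier3 without liver-null APAP 17 (-0.810) and in the first set (-0.768), against -0.464 over all 12.

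**Figure D3:**
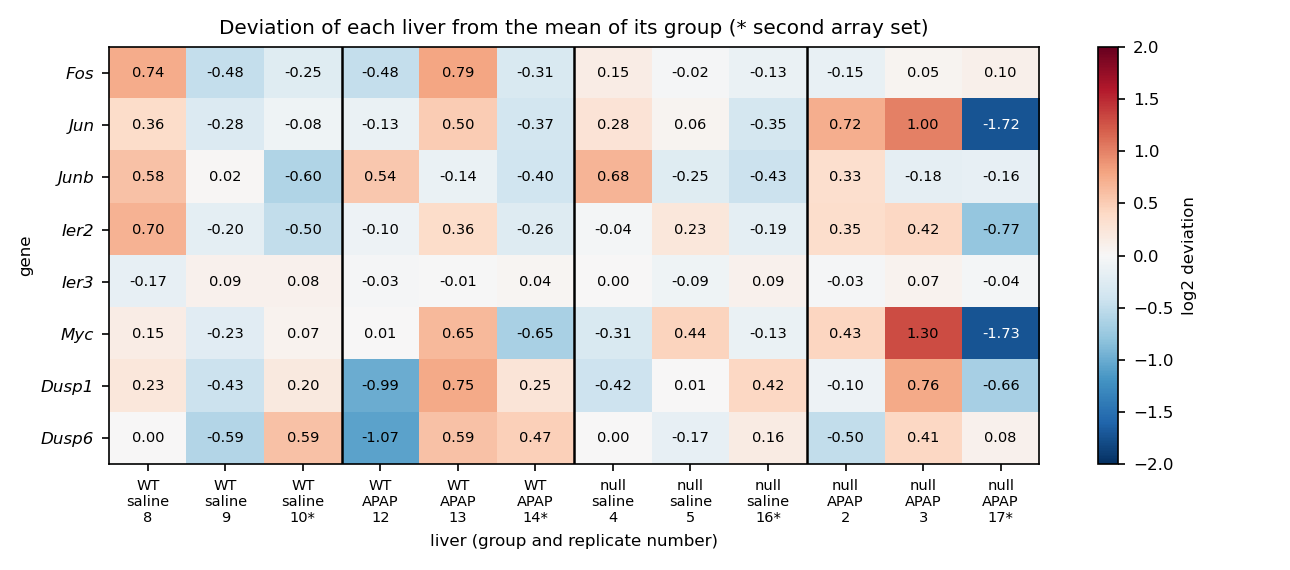
Deviation of each liver from its group mean (colour and number, log2) for the 8 tested genes (rows) in 12 livers (columns, by group and replicate number, an asterisk marking the second array set). Liver-null APAP 17 shows the lowest values, -1.72 for Jun and -1.73 for Myc, and Dusp1 and Dusp6 are lowest in wild-type APAP 12.

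Markers of other liver cells were read on the same arrays. Kupffer cell and macrophage markers (9 of 9 tested) had a list mean, relative to each gene's average, of -0.85 in liver-null APAP 17, the lowest of the 12 livers, and between -0.55 and 0.48 elsewhere. Endothelial markers (8 of 8 tested) ranged from -0.49 to 0.37, stellate markers (8 of 8) from -0.44 to 0.39, and neutrophil and monocyte markers (6 of 7) from -0.27 to 0.69, the highest being liver-null saline 4. Stellate markers ranged from 0.04 to 0.39 in wild-type saline and -0.44 to -0.07 in liver-null saline livers. Their median difference over both treatments was -0.25 between the genotypes, with 0 of 8 higher. Pdgfrb was the 1 called lower, where 2.18% of all genes were. Of the cholangiocyte and lymphocyte markers on the array 3 of 5 each were under the 40th percentile on all arrays, and the tested 2 of each lay within -0.25 to 0.18. Liver-null APAP 17 is an array of the second set. In every group the array of that set had the lowest endothelial mean (-0.49 to -0.23). For Kupffer cell and macrophage markers and for neutrophil and monocyte markers this held in all groups but wild-type APAP. For stellate markers it held in all but liver-null saline, and for lymphocyte markers in none. Whether cell makeup or the array set has a part in the values of Jun and Myc in liver-null APAP 17 was not tested.

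Other immediate early genes, from a list of AP-1 partners and factors of the same wave, contained 26 tested genes. Between the genotypes, averaged over both treatments, 1 was higher and 1 lower, where 4.46% of all genes were called (2.28% higher and 2.18% lower). Cebpd, a C/EBP factor of the acute phase, rose 2.69-fold in livers labelled liver-null (log2 1.43, SE 0.33, adjusted p = 0.0309, limma), from 4.68 ± 0.19 and 5.08 ± 0.31 in wild-type saline and APAP livers to 6.53 ± 1.05 and 6.08 ± 0.74. Gadd45a, a growth arrest gene that activates stress MAP kinases, fell 2.12-fold (log2 -1.08, SE 0.27, adjusted p = 0.0478, limma). Cebpd kept its call without wild-type APAP 12, liver-null saline 4, liver-null saline 16 or liver-null APAP 17 and lost it without any 1 of the other 8 livers (1.17 to 1.69), and with the mean of its probe sets the difference was 0.79 and passed. Gadd45a kept it without wild-type APAP 12 and lost it without any 1 of the other 11 (-1.36 to -0.91 over all 12). It also lost the call with no filter, with quantile normalization and in the first array set alone. The median of the list was -0.09 beside -0.01 for all genes, with 8 genes higher and 18 lower.

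For APAP against saline, averaged over the genotypes, 0 of those 26 genes were called (limma), with 20 higher, 6 lower and a median of 0.06 beside 0.00. At an unadjusted p under 0.05 there was 1, against 1.2% of all genes. The largest differences were 0.65 for Zfp36 (SE 0.18), whose protein destabilises AU-rich early mRNAs, and 0.38 for Gadd45g (SE 0.65). In the interaction the largest were -1.75 for Gadd45g (SE 1.3) and -1.61 for Klf10 (SE 0.79), and 0 were called (limma, 0 at an unadjusted p under 0.05).

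The further MAP kinase phosphatases and feedback inhibitors, a list with the other DUSP genes and the Sprouty and SPRED inhibitors of Ras signalling, had 13 tested genes. Of these 0 were called in either averaged comparison (limma). At an unadjusted p under 0.05 there were 0 in both, against 17% of all genes for genotype and 1.2% for APAP. The largest genotype differences were 0.19 for Phlda1 (SE 0.44) and -0.17 for Dusp3 (SE 0.10), and the largest APAP differences 0.19 for Spred1 (SE 0.16) and 0.17 for Rasa1 (SE 0.17). The list medians were 0.00 and 0.07, beside -0.01 and 0.00 for all genes. Dusp1 and Dusp6 had wider differences than any of these 13 in the APAP average.

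Upstream of the members, 9 growth factor ligands and receptors were tested. Averaged over both treatments 2 were lower in livers labelled liver-null and 0 higher, where 2.18% of all genes were called lower and 2.28% higher. Pdgfa, a ligand of platelet-derived growth factor receptors, fell 1.68-fold (log2 -0.75, SE 0.13, adjusted p = 0.00969, limma), and every one of the 6 livers labelled liver-null lay below the 6 wild-type livers. Pdgfrb, a receptor for that family carried by stellate cells and also on the stellate marker list, fell 1.54-fold (log2 -0.62, SE 0.13, adjusted p = 0.0248, limma), again without overlap. Pdgfa kept its call without any 1 liver. Pdgfrb kept it without liver-null saline 4 or 16, liver-null APAP 3, wild-type APAP 14 or wild-type saline 10 and lost it without any 1 of the other 7 (-0.73 to -0.56 over all 12), and its difference was -0.36 with the mean of its probe sets, which passed. For APAP 0 of 9 were called (limma, 0 at an unadjusted p under 0.05), with Egfr, the main receptor of epidermal growth factor in hepatocytes, at 0.33 (SE 0.21) and Fgf21 at -0.28 (SE 0.67).

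Of 23 tested genes of the Ras and MAP kinase cascade and its ternary complex factors, 0 were called in either averaged comparison (limma). An unadjusted p under 0.05 was reached by 2 for genotype and 0 for APAP, against 17% and 1.2% of all genes. The largest genotype differences were 0.61 for Map3k5 (SE 0.25, adjusted p = 0.227, limma, and 0.0415 with the array set as a covariate), the ASK1 kinase upstream of JNK and p38 that reduced thioredoxin holds inactive, and -0.23 for Nras (SE 0.14). Map3k5 read 3.89 ± 0.22 in wild-type saline, 3.90 ± 0.51 in wild-type APAP, 4.26 ± 0.21 in liver-null saline and 4.74 ± 0.79 in liver-null APAP livers. The list medians were 0.01 for genotype and 0.05 for APAP.

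Around Myc, 9 partners and antagonists were tested and 0 were called in either averaged comparison (limma). In each, 2 had an unadjusted p under 0.05, against 17% of all genes for genotype and 1.2% for APAP. The largest genotype differences were 0.30 for Mlxip (SE 0.13) and -0.29 for Mlx (SE 0.19), and the largest APAP differences 0.22 for Mga (SE 0.09) and -0.22 for Mycl (SE 0.10). Among 15 growth targets of MYC and AP-1 the median genotype difference was -0.09, with 4 genes higher and 11 lower. Of the 15, 0 were called higher and 1 lower, where 2.28% and 2.18% of all genes were. This was Ccnd1, cyclin D1 of cell cycle entry, which fell 4.51-fold (log2 -2.17, SE 0.33, adjusted p = 0.00425, limma), from 6.27 ± 0.61 and 6.44 ± 0.23 to 4.11 ± 1.06 and 4.26 ± 0.48, with no overlap of the genotypes, and it passed without any 1 liver. With the mean of its probe sets the difference was -1.46 and passed. For APAP 0 of the 15 were called (limma, 0 at an unadjusted p under 0.05), with Odc1 at -0.17 and Ccnd1 at 0.16.

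Dusp1 is also a glucocorticoid target, and 11 other glucocorticoid-responsive genes were tested. Between the genotypes 2 were higher and 0 lower, where 2.28% of all genes were called higher and 2.18% lower, and each of the 2 calls was lost without any 1 of 8 livers. The list had a median of 0.87 beside -0.01 for all genes, 7 genes higher and 4 lower. Fkbp5, a chaperone partner of the glucocorticoid receptor, rose 2.34-fold in livers labelled liver-null (log2 1.23, SE 0.28, adjusted p = 0.0309, limma), and Zbtb16, a zinc finger repressor, had a fitted log2 difference of 1.44 (SE 0.35, adjusted p = 0.0435, limma), for which no fold is given. Dusp1 itself lay lower in livers labelled liver-null (-1.02, not called). Fkbp5 kept its call without liver-null APAP 17, liver-null saline 16, wild-type APAP 13 or wild-type saline 10 and lost it without any 1 of the other 8 (1.08 to 1.48 over all 12). Zbtb16 kept it without liver-null APAP 17, liver-null saline 4, wild-type APAP 13 or wild-type saline 10 and lost it without any 1 of the other 8 (1.28 to 1.71 over all 12), and its difference was 0.81 with the mean of its probe sets, which passed. Zbtb16 also lost the call with no filter, with a trended prior and in the first array set alone. Its wild-type means of 2.02 and 1.99 lay under the 40th percentile of the arrays, so the difference may be understated. Its liver-null means of 3.37 and 3.52 lay above it, so Zbtb16 may have met the filter through livers labelled liver-null. Fkbp5 lost the call with the mean of its probe sets too (1.22, adjusted p = 0.0522). For APAP 0 of the 11 were called (limma, 0 at an unadjusted p under 0.05), with 10 higher and 1 lower, a median of 0.15, Mt1 at 0.34 (SE 0.57) and Tsc22d3 at 0.30 (SE 0.17).

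**Figure D4:**
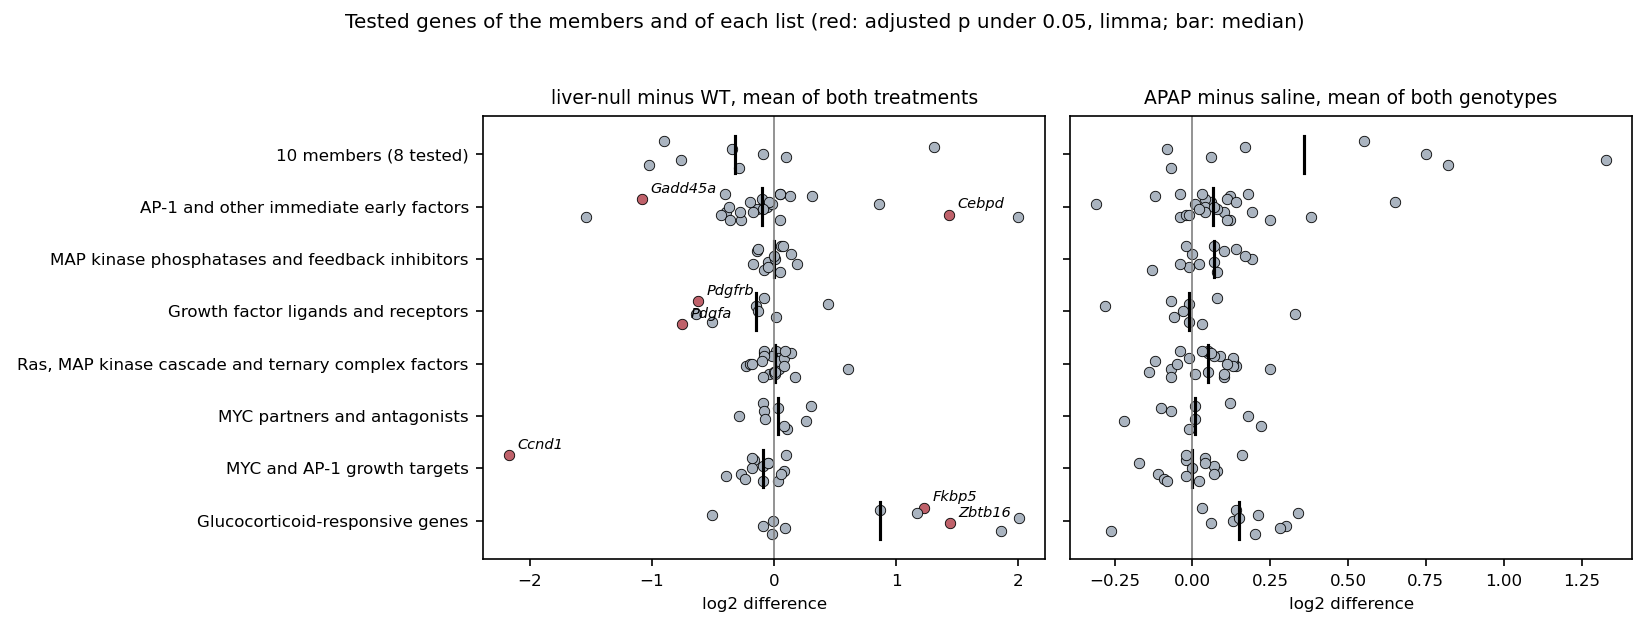
Log2 differences (horizontal axes, which differ in scale) of the tested genes of the members and of 7 related lists, each point a gene, red where the adjusted p was under 0.05 and black bars at the medians. In the genotype panel 7 genes passed, Ccnd1 being lowest at -2.17 and Zbtb16 highest of the called at 1.44, and in the APAP panel 0 passed and Jun lay farthest from 0 at 1.33. With no filter Zbtb16 and Gadd45a did not pass.

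The genes most like each member were taken as the 3 with the highest Pearson correlation over the 12 arrays among 8461 other tested genes, a choice that by itself yields high values. Myc was most like Map3k5 (r = 0.933, and 0.931 in the 8 arrays of the first set), Gdap10 (0.933) and Mapkapk5 (0.926), which encodes a kinase downstream of p38-type MAP kinases. Without the 2 livers farthest from the median of Myc the correlation with Map3k5 was 0.791. Jun was most like the amino acid transporter Slc38a2 (0.899), Dusp11 (0.856) and Rmc1 (0.837). Fos was most like Hs2st1 (0.871), Myo1h (0.864) and Ifrd1 (0.854). Without the 2 livers farthest from the median of Fos, wild-type APAP 13 and 14, these were 0.756, 0.684 and 0.621. Ifrd1, picked for this likeness, read 6.90 ± 0.34 in wild-type APAP livers and 6.18 to 6.25 as the mean of each other group.

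Dusp1 was most like Mtif2 (0.910), Them4 (0.907) and Gcnt2 (0.905). Of these Them4 was lower in livers labelled liver-null (log2 -0.52, SE 0.11, adjusted p = 0.0217, limma). It was picked for likeness to Dusp1 over the same livers of both genotypes, so this difference is not independent of that of Dusp1. Dusp6 was most like Tcim (0.828), the glucocorticoid-induced Tsc22d3 (0.827) and Arnt (0.783). Junb was most like Ndufa8 (0.958), Arglu1 (0.951) and Ap3d1 (0.950), Ier2 like Rce1 (0.942), Col14a1 (0.933) and Fastkd1 (0.923), and Ier3 like Ube2e2 (0.836), Golph3 (0.823) and Arl1 (0.821). For Ier3 these dropped to 0.513, 0.227 and 0.479 without the 2 livers farthest from its median. Of the untested members, Egr1 was most like Pop7 (0.937), Rpp25l (0.929) and Eral1 (0.916), and Fosb like Med6 (0.951), Atp8b3 (0.922) and Pip5k1a (0.917).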

How the data were processed

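Liver RNA of 12 mice was labelled as biotinylated cRNA and read on 1 Affymetrix array each, per the labels' protocols. The authors deposited 1 log2 value for each probe set and array, computed with RMA per the submitters' processing notes. Neither the RMA version nor the arrays it was run over is stated in the labels used here. Of 22690 probe sets, those with 1 symbol in the platform annotation (whose symbols can be old) gave 12393 genes, with the probe set of highest mean standing for a gene that has several. Genes above the array's 40th percentile on 3 or more arrays were tested, which left 8469. No further normalization was applied.

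Differences were fitted with limma 3.58.1 in R 4.3.3 (4 group means, lmFit and eBayes, 8 residual and 3.43 prior degrees of freedom), two-sided, with Benjamini-Hochberg adjustment over the 8469 genes and a threshold of 0.05. The fit was tested on simulated data. Every adjusted p comes from this fit unless another setting is named, SE is that of a fitted difference, and ± is the SD of 3 livers. The array sets were split at the largest gap in the upper quartile. Alternatives were no filter, the mean of a gene's probe sets, quantile normalization, only the arrays compared, the array set as a covariate, array weights, a trended robust prior, each liver left out, and, chosen after seeing the data, the first array set alone.

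The members, comparisons and gene lists were chosen with earlier results of these data known. The text names all members, per list up to 4 called genes in each direction with the largest difference or, where none passed, up to 2 with the largest difference, and per member the 3 most correlated genes. The list comparisons are given for the averaged contrasts. The pathway lists were AP-1 and other immediate early factors, MAP kinase feedback inhibitors, growth factor ligands and receptors, the MAP kinase cascade, MYC partners, growth targets and glucocorticoid-responsive genes. Probe sets near the low end of the array understate differences. Promoter sequences came from RefSeq (GRCm38.p6). No genome coordinates of probe sets were used.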

Additional observations from a re-analysis of the deposited data

How the results depend on the processing

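The count of called members was 0 in all 7 comparisons as reported, and stayed at 0 in 125 of 137 alternative counts. For the genotype difference averaged over both treatments it was 1 with quantile normalization (Fos), 2 with the array set as a covariate (Fos and Myc), 2 with array weights (Fos and Myc), 1 with a trended robust prior (Fos) and 1 in the first array set alone (Myc). Leaving out each liver in turn gave 0 to 2 there. With array weights it was 1 for the genotypes in saline (Myc) and 1 after APAP (Fos). Leaving out each liver gave 0 to 1 for the genotypes after APAP, 0 to 1 for APAP averaged over the genotypes, and 0 in the other 4 comparisons. The 22 single differences were 15 of members, with an unadjusted p under 0.05 in the main limma fit, and 7 of called list genes. Of their 425 alternative values 0 changed sign, 14 newly passed the threshold and 49 no longer passed. Picked for large differences relative to their error, they were unlikely to change sign. Only the 15 could newly pass and only the 7 could lose a call. Of 19 alternatives each, Gadd45a lost it in 14, Zbtb16 in 11, Fkbp5 in 9, Cebpd in 8 and Pdgfrb in 7. Pdgfa and Ccnd1 lost it in 0. The causes were not tested. With the array set as a covariate the genes called among all 8469 went from 54 to 243 in saline, 65 to 185 after APAP and 378 to 882 averaged, and stayed at 0 for APAP and the interaction. Over all settings, each liver left out included, these counts ranged from 10 to 1323, 21 to 210 and 208 to 1409, the highest with array weights. With the covariate the lower calls of the list of other immediate early factors went from 1 to 3, and of growth factor ligands and receptors from 2 to 4. No paired analysis was possible because the groups share no replicate number. The confidence intervals of the members reached 0.23 to 1.32 on either side of a difference between 2 groups, so differences within them were not resolved by 3 livers a group.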
